A study of Mus musculus with 1753 samples.

Results

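Clusters 3 and 8 are a pair of fibroblast populations of mouse hindlimb muscle that the study assigned to the endomysium, the thin connective tissue around single muscle fibers. The study expects that its endomysial clusters also hold perivascular fibroblasts and fibro-adipogenic progenitors, and leaves this to further work. The cells were those whose label gave cluster 3 (440 cells) or cluster 8 (253 cells), 693 of the 1753 labeled cells in all. The mice were adult males of 10 to 20 weeks, and the study methods place every line on a C57Bl6/J background. Each cell was sorted into a well and sequenced with Smart-seq2, a full-length polyadenylated RNA protocol without molecular identifiers.

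The strain label C57BL6 stood for mice without a reporter, whose cells were sorted by antibody against PDGFRα or PDGFRβ. PdgfrbGFP, Acta2GFP and Cspg4dsRED mice carried a fluorescent reporter driven by the regulatory sequences of the gene in the name, and PdgfraGFP - PdgfrbGFP pool held cells of a pair of reporter lines (called the pool below). All sorts left out cells positive for the endothelial protein CD31, and elastase had been added to the dissociation of Acta2GFP muscle. Cluster 3 and cluster 8 held 39 and 13 cells of Acta2GFP, 57 and 60 of C57BL6, 163 and 30 of the pool, 179 and 148 of PdgfrbGFP, and 2 and 2 of Cspg4dsRED. Counts were summed per strain label and cluster over the 4 labels with 3 or more cells on both sides, which kept 438 and 251 cells, and the strain label was a block in the fit. The labels name no animal. Each strain label was taken as a separate sample. The p-values then measure how far the difference between the clusters varies over these labels, and that variation may be technical. Whether the pool and PdgfrbGFP share a mouse is not known.

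Endomysial fibroblasts make the collagens, proteoglycans and basement membrane components between muscle fibers, and they lie close to capillaries and nerve branches. Cells of this kind that carry PDGFRα are known as fibro-adipogenic progenitors, which can turn to fat or scar tissue and which feed muscle stem cells with growth factors. They also secrete chemokines, complement proteins and antagonists of the BMP and Wnt pathways, through which they act on immune cells, nerves and muscle.

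Depth was close in the clusters. The cells held 49753 to 803598 counts, with a median of 275360, and the 8 summed libraries held 3242275 to 55331831 counts. The median count per cell was 276732 ± 91769 in cluster 3 and 294526 ± 93071 in cluster 8 (SD, n = 4 strain labels), and was higher in cluster 8 in 3 of 4 labels (exact sign-flip permutation test, two-sided, p = 0.25). After each cell had been thinned to 40000 counts, the median number of genes was 3121 ± 404 in cluster 3 and 3439 ± 490 in cluster 8, and was higher in cluster 8 in 4 of 4 labels (exact permutation p = 0.125, the smallest that 4 pairs allow). Spike-in RNA took 1.32% ± 0.31 of the counts in cluster 3 and 1.11% ± 0.31 in cluster 8, lower in cluster 8 in 4 of 4 labels (exact permutation p = 0.125). Mitochondrial genes took 1.28% ± 0.12 and 1.19% ± 0.08.

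Both clusters carried the fibroblast program. The 12 fibroblast markers summed to 38522 to 43142 CPM (counts scaled to 1000000 per summed library, for single genes with TMM factors) in cluster 3 and to 39545 to 54008 in cluster 8. The authors had removed cells with neither Pdgfra nor Pdgfrb, so the presence of these genes was in part set in advance. Pdgfra encodes 1 of the receptors used for sorting, in part of the sorts only. Its level was 844, 1086, 622 and 853 CPM in cluster 3 of Acta2GFP, C57BL6, the pool and PdgfrbGFP. In cluster 8 it was 407, 1109, 510 and 853. Values are given in this order of labels throughout. The ranges of Pdgfra overlapped, and its log2 fold, always given as cluster 8 minus cluster 3, was -0.32 ± 0.20 (SE; edgeR adjusted p = 0.683). Each adjusted p is from the quasi-likelihood test of edgeR, adjusted by Benjamini-Hochberg over all genes tested. Pdgfrb (0.11 ± 0.15), Dcn, which encodes the matrix proteoglycan decorin (-0.11 ± 0.08), Lum (-0.20 ± 0.10), Ly6a, the progenitor surface marker Sca-1 (0.14 ± 0.10), and Cd34 (-0.30 ± 0.09) were not called, nor were the fibrillar collagen genes Col3a1 (0.14 ± 0.13) and Col1a1 (0.73 ± 0.19). Fbln1, which encodes the matrix glycoprotein fibulin-1, was the 1 member of this list that was called, and it was higher in cluster 8.

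Of 14432 genes tested, 141 were called at an adjusted p under 0.05, which is 0.977% of all. 85 were higher in cluster 8 (0.589% of genes tested) and 56 were higher in cluster 3 (0.388%). The authors had drawn the clusters from these same counts, so the fit describes how far the strain labels repeat the difference and gives no independent evidence of it. At an unadjusted p under 0.05 there were 1456 genes, and the median log2 fold over all genes was -0.06. All 141 called genes had the same direction in 4 of 4 strain labels, and for 127 of them the ranges of the clusters did not overlap, against 6.72% of all genes tested. With the plate and muscle as the unit, 131 of the 141 had the same direction in 7 of 7 units. The genes higher in cluster 8 had a median log2 fold of 2.84 and the genes higher in cluster 3 one of 1.76 in the other direction. Folds of at least 5 on the log2 scale were found for 24 genes higher in cluster 8 and 6 higher in cluster 3.

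**Figure D1:**
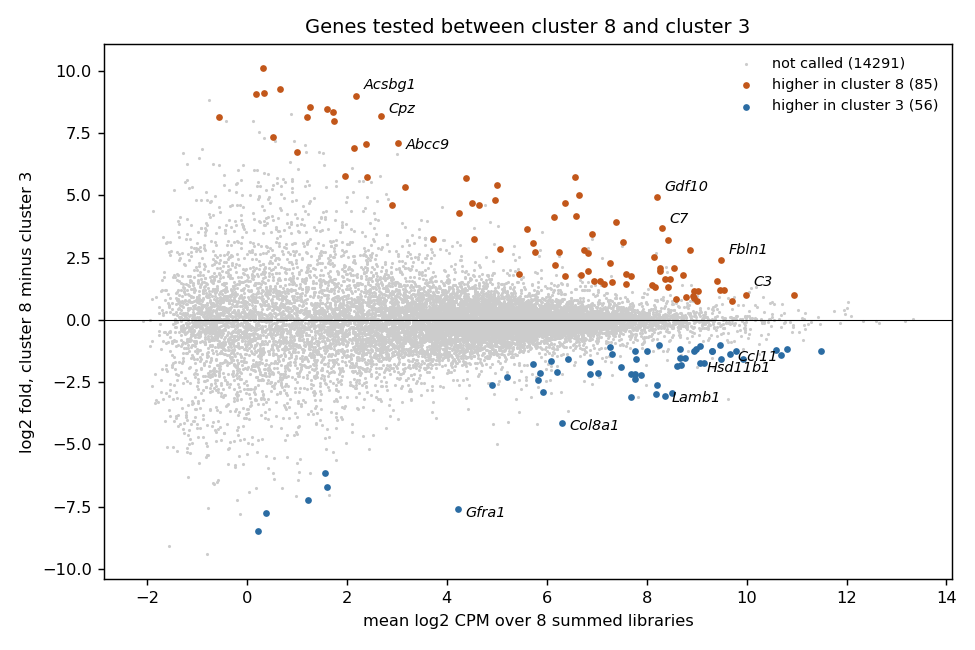
Each point is 1 of 14432 genes, with the mean log2 CPM over the 8 summed libraries on the x axis and the log2 fold, cluster 8 minus cluster 3, on the y axis. The 85 orange genes were called higher in cluster 8 and reach a log2 fold of 10.1, the 56 blue genes were called higher in cluster 3, and genes of high level such as Ccl11 and C3 moved by less than those of low level such as Acsbg1.

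The calls rested on few samples. Without the PdgfrbGFP label 7 genes were called and without the pool 15, against 62 without Acta2GFP and 106 without C57BL6. Gfra1, Fbln1, Cdh13, Abcc9, Cpz and Acsbg1 were called whichever label was left out, and 88 of the 141 were called in at least 1 of these 4 fits. None of the 141 changed direction without any label.

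Gfra1 set the clusters apart most plainly in the direction of cluster 3. It encodes the surface receptor for GDNF, a neurotrophic factor of nerve and muscle, and lies on the minus strand of chromosome 19 from 58235604 to 58455909 (GRCm38). The summed level was 206, 242, 286 and 263 CPM in cluster 3 and 2.27, 0.586, 2.30 and 0.997 in cluster 8. The groups lay far apart in every label, with a log2 fold of -7.61 ± 0.46 (edgeR adjusted p = 0.00278). Over 7 units of plate and muscle the difference ran from -7.26 to -5.97 on the log2(CPM + 1) scale. At 100 or more counts per 500000, the level from which a gene is called detected here, Gfra1 was found in 177 of 438 cells of cluster 3 and in 0 of 251 cells of cluster 8, which allows a share of up to 1.20% in cluster 8 for counting error only. It was present in less than the whole of cluster 3, with 30.8% to 47.9% of cells by label. The antisense gene Gm16277 covers 7.60% of its exonic bases, and since the use of strand in the counting was not stated, reads there cannot be told apart.

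Ret, the signaling partner of GFRα receptors, stood at 211, 155, 244 and 175 CPM in cluster 3 and at 4.21, 18.2, 0.954 and 10.0 in cluster 8. The ranges did not overlap, but the spread in cluster 8 was wide, and the fold of -4.99 ± 0.85 was not called (edgeR adjusted p = 0.0645). Ntrk2, the receptor of the neurotrophin BDNF, was called in the other direction. Its level was 125, 128, 139 and 70.2 CPM in cluster 3 and 354, 588, 307 and 333 in cluster 8 (1.77 ± 0.23, edgeR adjusted p = 0.0325). Of the 18 tested genes of GDNF and neurotrophin ligands and receptors, 3 were called (16.7%, against 0.977% of all genes tested). 2 were higher in cluster 3 and 1 in cluster 8, with a median log2 fold of 0.30 against -0.06 for all genes. Gfra1 alone of the 3 was still called without the pool, and alone without PdgfrbGFP.

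The other leading genes of cluster 3 took in surface, matrix and basement membrane genes. Lamb1, which encodes the laminin β1 chain, stood at 1058, 847, 1029 and 888 CPM in cluster 3 and 60.2, 270, 89.9 and 112 in cluster 8 (-3.08 ± 0.41, edgeR adjusted p = 0.0337). Enpp2, which encodes autotaxin, the secreted enzyme that makes lysophosphatidic acid, stood at 794, 734, 824 and 954 against 41.4, 257, 70.4 and 152 (-2.99 ± 0.46, edgeR adjusted p = 0.0475). For both genes every cluster 8 library lay below every cluster 3 library, and C57BL6 was the highest label in cluster 8. Col8a1, a short-chain collagen gene, fell from 265 to 478 CPM in cluster 3 to 8.09 to 35.1 in cluster 8 (-4.14 ± 0.48). Itga11, the integrin α11 chain that binds fibrillar collagen (-2.38 ± 0.33), Pcsk6, a proprotein convertase (-3.10 ± 0.37), Jup, the junction protein plakoglobin (-2.93 ± 0.40), Fibin (-2.91 ± 0.27), Il4ra, the interleukin-4 receptor α chain (-2.61 ± 0.37), Capn6 (-2.42 ± 0.28) and Scg3 (-2.29 ± 0.35) completed the set with Thbs4. Of these 12 genes, 5 were called without Acta2GFP, 5 without C57BL6, 2 without the pool and 1 without PdgfrbGFP.

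Thbs4, which encodes thrombospondin-4 and marks the perimysial and paramysial cells of the same tissue, was higher in cluster 3 at 1732, 545, 354 and 898 CPM, against 162, 146, 114 and 74.0 in cluster 8 (-2.64 ± 0.39, edgeR adjusted p = 0.0434). The 5 paramysial markers, of which it is 1, summed to 451 to 2111 CPM in cluster 3 and 117 to 335 in cluster 8. Thbs4 was the only one of the 5 that was called, and 2 of the 5 had a positive fold. The 13 perimysial and tendon markers summed to 520 to 2179 and 654 to 1203, ranges that overlapped. The part of such cells in the Thbs4 difference was not tested.

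Basement membrane genes moved toward cluster 3. Their median log2 fold was -0.83 against -0.06 for all genes. 6 of 26 tested members were called (23.1%, against 0.977% of all genes tested), all higher in cluster 3. Beside Lamb1 these were Hspg2, which encodes the heparan sulfate proteoglycan perlecan (-1.74 ± 0.14, edgeR adjusted p = 0.00778), Lamc1, the laminin γ1 chain (-1.25 ± 0.17, edgeR adjusted p = 0.0362), the linker genes Nid1 (-1.23 ± 0.18) and Nid2 (-1.26 ± 0.18), and Smoc2 (-1.24 ± 0.19). Hspg2 stood at 937, 1005, 1503 and 818 CPM in cluster 3 and 214, 323, 444 and 298 in cluster 8. Lamc1 stood at 756, 1271, 872 and 1097 against 466, 525, 341 and 345. No library of cluster 8 reached the lowest of cluster 3 for either gene. Without the pool or without PdgfrbGFP, 0 of these 6 were called, and without either of the other labels 3 were. DESeq2 called 15 members of the list, 11 higher in cluster 3 and 4 higher in cluster 8.

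Interstitial matrix genes were split. 8 of 46 tested elastic fiber and matricellular genes were called (17.4%, against 0.977% of all genes tested). 5 were higher in cluster 3 and 3 in cluster 8, with a list median of -0.21. Fbln1 stood at 347, 267, 295 and 344 CPM in cluster 3 and 1519, 1425, 1538 and 2282 in cluster 8 (2.41 ± 0.13, edgeR adjusted p = 0.00205). Its relative Fbln2 went the other way, from 2517 to 2871 in cluster 3 to 743 to 1194 in cluster 8 (-1.41 ± 0.12, edgeR adjusted p = 0.00904). The fibulins thus differed in opposite directions with no overlap in either. Vit, which encodes the matrix protein vitrin, was higher in cluster 8 (2.68 ± 0.15, edgeR adjusted p = 0.00259), whereas Vwa1 (-2.18 ± 0.26), Hmcn2 (-1.57 ± 0.22) and Tnxb, which encodes tenascin-X (-1.24 ± 0.18), were higher in cluster 3. Ecm1 (0.99) was the third gene called higher in cluster 8. Among 28 tested proteoglycans, the glypican genes Gpc6 (3.08 ± 0.24, edgeR adjusted p = 0.00755) and Gpc3 (0.92 ± 0.13) were higher in cluster 8 and the syndecan gene Sdc2 (-1.27 ± 0.10, edgeR adjusted p = 0.00778) in cluster 3. Of 21 tested collagens Col8a1 alone was called. Without the pool 2 of the 8 matricellular calls remained in the direction of cluster 8, without PdgfrbGFP 1, and without either label no proteoglycan call remained.

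**Figure D2:**
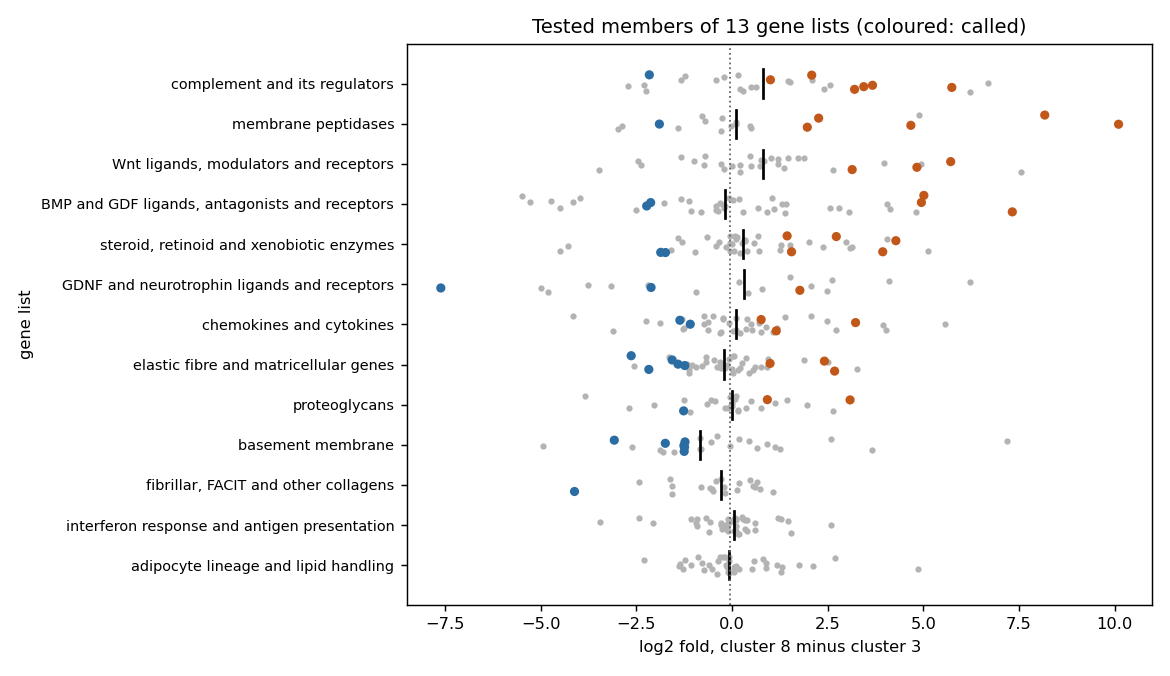
Each point is a tested member of 1 of 13 gene lists, placed by its log2 fold, cluster 8 minus cluster 3, with called genes in orange (higher in cluster 8) or blue (higher in cluster 3) and other genes in gray. The black bar is the list median and the dotted line the median of all genes (-0.06). The complement median lies at 0.81 and the basement membrane median at -0.83.

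Gdf10 was the counterpart of Gfra1 in cluster 8. It encodes a secreted factor of the TGF-β superfamily (BMP3b) and lies on the plus strand of chromosome 14 from 33923587 to 33937983. Its level was 15.3, 44.6, 141 and 80.2 CPM in cluster 3 and 1168, 1133, 2410 and 2367 in cluster 8. The lowest cluster 8 library was well above the highest of cluster 3, with a log2 fold of 4.95 ± 0.38 (edgeR adjusted p = 0.00755), and the difference over 7 units of plate and muscle was 3.33 to 6.16. Gdf10 was detected in 222 of 251 cells of cluster 8 (69.2% to 100% by label) and in 41 of 438 cells of cluster 3 (5.13% to 15.95%). It was not called without PdgfrbGFP. Per cell, Gfra1 without Gdf10 was found in 39.0% of cluster 3 cells and 0% of cluster 8 cells, Gdf10 without Gfra1 in 7.99% and 88.4%, and both in 6 of 438 and 0 of 251 cells. Neither was found in 51.6% of cluster 3 cells and 11.6% of cluster 8 cells.

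A BMP antagonist gene accompanied Gdf10. Chrdl1, which encodes the BMP antagonist chordin-like 1, stood at 28.5, 10.8, 8.15 and 36.5 CPM in cluster 3 and 898, 326, 732 and 480 in cluster 8 (5.01 ± 0.48, edgeR adjusted p = 0.013). The BMP ligand gene Bmp4 was higher in cluster 3, at 658, 561, 406 and 458 CPM against 123, 56.2, 109 and 184 (-2.23 ± 0.33, edgeR adjusted p = 0.043), as was Rgma, which encodes a BMP co-receptor (-2.13 ± 0.31). Of 41 tested members of the BMP and GDF list, 5 were called (12.2%, against 0.977% of all genes tested). 3 were higher in cluster 8 and 2 in cluster 3, with a median of -0.18. Of the TGF-β list, 1 of 18 tested members was called, the co-receptor gene Eng, at 319 to 560 CPM in cluster 3 and 138 to 281 in cluster 8 (edgeR adjusted p = 0.0345). Without PdgfrbGFP 1 member of the BMP and GDF list was called, and without the pool 2, all of them higher in cluster 8.

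Among 32 tested Wnt genes, 3 were called (9.4%, against 0.977% of all genes tested). All 3 encode secreted Wnt modulators and were higher in cluster 8. Sfrp2 stood at 2.56, 3.29, 19.9 and 6.76 CPM in cluster 3 and 136, 108, 197 and 263 in cluster 8 (4.83 ± 0.48, edgeR adjusted p = 0.0146). Sfrp4 stood at 40.2, 56.3, 70.6 and 93.3 against 201, 624, 800 and 877 (3.14 ± 0.24, edgeR adjusted p = 0.00755). Neither gene had overlapping ranges. Sfrp2 was detected in 31 of 251 cells of cluster 8 and 7 of 438 of cluster 3. Without TMM factors its mean level was 175 CPM in cluster 8, 310 in cluster 1, 1682 in cluster 5 and 12.6 in cluster 6. Dkk3 was at 0.720 to 13.8 in cluster 3 and 27.9 to 377 in cluster 8 (5.71 ± 0.41, edgeR adjusted p = 0.00733). The median of the list was 0.80 and 23 of its 32 members had a positive fold, but without PdgfrbGFP 0 of the list were called.

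Complement genes, which encode proteins of an innate immune cascade, were the list with the most calls toward cluster 8 by count. In either direction, 26.9% of its tested members were called, against 31.6% of membrane peptidases and 0.977% of all genes tested. 6 of the 26 tested complement members were higher in cluster 8 and 1 in cluster 3, with a median of 0.81. C2, a protease of the classical pathway, stood at 7.79, 27.1, 5.33 and 25.1 CPM in cluster 3 and 934, 324, 845 and 881 in cluster 8 (5.74 ± 0.74, edgeR adjusted p = 0.0305). C7, a subunit of the membrane attack complex, stood at 68.9, 120, 108 and 70.4 against 1145, 746, 1392 and 1364 (3.67 ± 0.30, edgeR adjusted p = 0.00778). C57BL6 was the lowest cluster 8 label for both, and still above all of cluster 3. C4b (3.44 ± 0.41, edgeR adjusted p = 0.023) and Cfb, which encodes factor B of the alternative pathway (2.08 ± 0.30, edgeR adjusted p = 0.0398), rose with them. C3, the central component, rose from 258, 1070, 1158 and 837 CPM to 550, 2607, 1682 and 1787 (1.00 ± 0.14, edgeR adjusted p = 0.0385), and its ranges overlapped. Cd55, a regulator that breaks down C3 convertases at the cell surface, was higher in cluster 3 (-2.16 ± 0.27, edgeR adjusted p = 0.0257). The annotated gene Gm20547, itself called, covers 42.8% of the exonic bases of C2 and 79.5% of those of Cfb on the same strand, and C4b has a near-identical copy, so these counts are uncertain. Without the pool or without PdgfrbGFP 0 of the list were called, without Acta2GFP 2 were, and without C57BL6 6.

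Peptidase genes of the surface and secretory path also differed. 6 of 19 tested were called (31.6%, against 0.977% of all genes tested). 5 were higher in cluster 8 and 1, Fap, which encodes fibroblast activation protein (-1.90 ± 0.19, edgeR adjusted p = 0.0154), was higher in cluster 3. Cpz, a carboxypeptidase gene whose product binds Wnt proteins (chromosome 5, 35502218 to 35525698, minus strand), stood at 0.854, 0.0900, 0.383 and 0.484 CPM in cluster 3 and 178, 14.9, 198 and 136 in cluster 8 (8.17 ± 0.43, edgeR adjusted p = 0.00205). Cpe, which encodes carboxypeptidase E, stood at 11.999 to 20.3 and 163 to 696 (4.67 ± 0.43, edgeR adjusted p = 0.0114). Both were far apart, and C57BL6 was again the lowest cluster 8 label. Cpxm1 (1.97 ± 0.25) and Cpxm2 (2.26 ± 0.30) were also higher in cluster 8. Folh1, which encodes glutamate carboxypeptidase II, had 3 counts in all of cluster 3 and 1615 in cluster 8, a ratio of 942 per count sequenced (exact 95% interval 322 to 4572, counting error only). Folh1 was detected in 11 of 251 cells of cluster 8 and in 0 of 438 of cluster 3. Mme, which encodes the membrane peptidase neprilysin, stood at 162, 232, 233 and 248 in cluster 3 and 18.5, 98.3, 7.31 and 47.6 in cluster 8. Its ranges did not overlap, but its fold of -2.88 ± 0.62 was not called (edgeR adjusted p = 0.118). Without the pool or without PdgfrbGFP 1 member of this list was called, Cpz.

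By edgeR 0 of 14 tested matrix metalloproteinase and TIMP genes were called (5 at an unadjusted p under 0.05, 5 by DESeq2), and 0 of 17 ADAMTS protease genes (5 and 5). Mmp3, which encodes stromelysin-1, stood at 3.84, 64.5, 18.03 and 19.5 CPM in cluster 3 and 203, 200, 158 and 293 in cluster 8. The ranges did not overlap, and the fold of 3.54 ± 0.67 missed the threshold (edgeR adjusted p = 0.0837). Mmp2, a gelatinase gene, had a fold of -0.18 ± 0.10, and Timp2 one of 0.67 ± 0.12 (edgeR adjusted p = 0.074).

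Enzymes of small lipophilic molecules were called on both sides, 7 of 44 in all (15.9%, against 0.977% of all genes tested). 5 were higher in cluster 8 and 2 higher in cluster 3. Hsd11b1, which encodes the enzyme that regenerates active glucocorticoid, stood at 840, 1020, 1052 and 1001 CPM in cluster 3 and 321, 372, 206 and 292 in cluster 8 (-1.74 ± 0.19, edgeR adjusted p = 0.018). It was detected in 82.9% ± 6.7 of cluster 3 cells and 41.8% ± 4.0 of cluster 8 cells (SD, n = 4 labels). Aldh1a2, which encodes an enzyme that makes retinoic acid, was higher in cluster 3, at 368 to 1311 against 116 to 366 (-1.87 ± 0.22, edgeR adjusted p = 0.0215). In the direction of cluster 8, Fmo2, a flavin monooxygenase gene, rose from 24.7 to 55.9 CPM to 287 to 1028 (3.94 ± 0.42, edgeR adjusted p = 0.018), and Adh7, a retinol-oxidizing alcohol dehydrogenase gene, from 1.49 to 9.36 to 66.7 to 146 (4.28 ± 0.47, edgeR adjusted p = 0.0189). The dioxin-inducible gene Cyp1b1 (2.72 ± 0.42) and Dhrs3, which encodes a retinal reductase (1.55 ± 0.22), were also higher in cluster 8. Of 25 tested glucocorticoid receptor targets and the receptor gene, 1 was called, Errfi1, higher in cluster 8 (2.10 ± 0.30, edgeR adjusted p = 0.0398). Without the pool or without PdgfrbGFP no gene of either list was called.

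Of 43 tested chemokine and cytokine genes, 5 were called (11.6%, against 0.977% of all genes tested). 3 were higher in cluster 8 and 2 in cluster 3. Ccl11, which encodes the eosinophil attractant eotaxin, stood at 1088, 1526, 1328 and 1295 CPM in cluster 3 and 321, 961, 494 and 428 in cluster 8 (-1.36 ± 0.19, edgeR adjusted p = 0.0385). Il33, which encodes an alarmin, was also higher in cluster 3 (-1.09 ± 0.16, edgeR adjusted p = 0.0443), although 2 of the 7 units of plate and muscle had the other sign. Ccl19, which encodes a lymphocyte and dendritic cell attractant, stood at 3.53 to 6.64 in cluster 3 and 32.0 to 52.4 in cluster 8 (3.23 ± 0.48, edgeR adjusted p = 0.043), and its counts are uncertain because the genome holds near-copies, of which Gm2564 was also called. Ccl19 was detected in only 5 of 251 cells of cluster 8 and in 0 of 438 of cluster 3. Il6st, the shared receptor chain gp130 of interleukin-6 family cytokines (1.16 ± 0.12, edgeR adjusted p = 0.0146), and Cxcl12 (0.76 ± 0.10) rose in cluster 8 as well. By edgeR 0 of 42 interferon response and antigen presentation genes were called (3 at an unadjusted p under 0.05, 2 by DESeq2), and 0 of 39 adipocyte and lipid handling genes (12 and 11). No chemokine or cytokine gene was called without Acta2GFP, without the pool or without PdgfrbGFP.

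Of 74 tested members of the fibroblast and limb transcription factor list, 2 were called (2.70%, against 0.977% of all genes tested). Nr2f2, which encodes the orphan nuclear receptor COUP-TFII, and Osr1, a marker of limb connective tissue progenitors, were both higher in cluster 8. Nr2f2 stood at 5.44, 18.9, 15.1 and 20.7 CPM in cluster 3 and 268, 118, 174 and 177 in cluster 8 (3.65 ± 0.53, edgeR adjusted p = 0.0398). Osr1 stood at 134, 203, 236 and 252 against 703, 536, 441 and 897 (1.63 ± 0.25, edgeR adjusted p = 0.0477). Gata6, a zinc finger factor gene outside the list and named here after its values were seen, stood at 0.0692 to 0.213 in cluster 3 and 13.6 to 58.9 in cluster 8 (8.16 ± 0.73, edgeR adjusted p = 0.0109). All 3 genes had ranges apart. Without the pool or without PdgfrbGFP neither list member was called. Of 46 tested immediate early and dissociation response genes, 2 were called, Gadd45g (1.31 ± 0.17, edgeR adjusted p = 0.0337) and Zfp36l1 (0.74 ± 0.11, edgeR adjusted p = 0.0494), both higher in cluster 8 and neither called when any 1 of the 4 labels was left out. Antisense genes cover 55.9% of the exonic bases of Zfp36l1 and 16.1% of those of Sfrp2, where reads cannot be told apart. The list median was -0.10.

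Of 42 tested markers of fibro-adipogenic and universal fibroblast progenitors, 7 were called (16.7%, against 0.977% of all genes tested). 3 were higher in cluster 8 (Gdf10, Osr1 and the enkephalin gene Penk, 1.15) and 4 in cluster 3 (Cd55, Hsd11b1, Smoc2 and Eng), with a list median of -0.42. The IGF list had 1 call among 14 tested genes (7.14%), the serine protease gene Htra3 (-1.18 ± 0.12, edgeR adjusted p = 0.0154), higher in cluster 3. Without PdgfrbGFP 0 genes of either list were called, and without the pool 1, Gdf10.

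**Figure D3:**
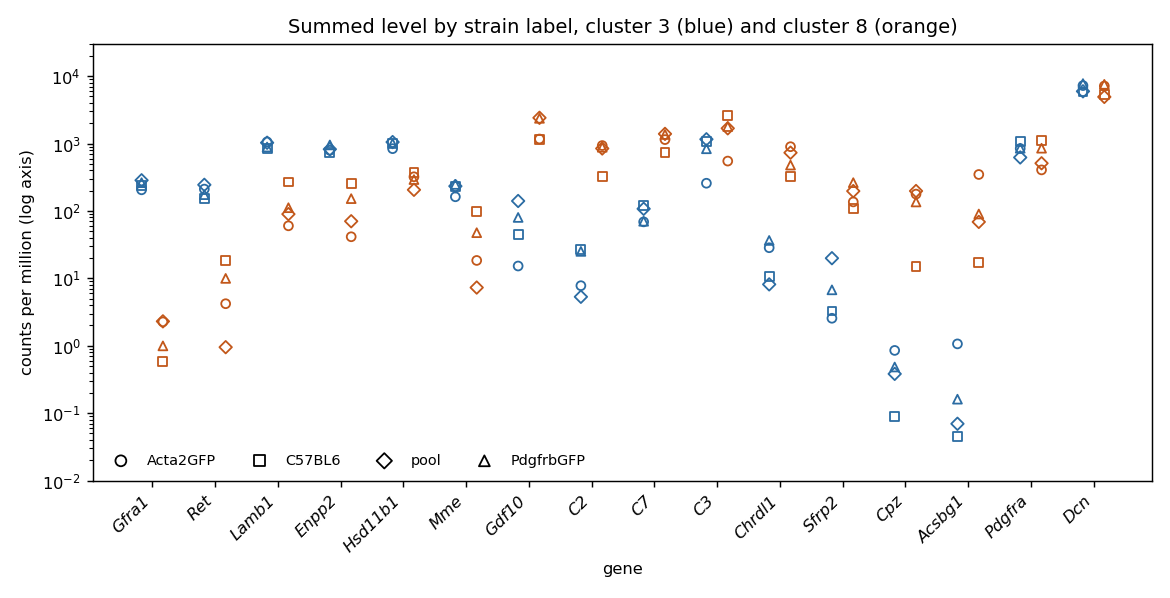
CPM (log axis) of 16 genes in the summed libraries of cluster 3 (blue) and cluster 8 (orange), 1 symbol per strain label. Gfra1 lies at 206 to 286 in cluster 3 and at 0.586 to 2.30 in cluster 8, Gdf10 at 15.3 to 141 and 1133 to 2410, whereas Pdgfra and Dcn overlap.

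Several of the leading genes of cluster 8 came from a minority of its cells. The 12 genes with the largest folds by the naming rule were Acsbg1, Vill, Art4, Mlana, Cpz, Gabra3, Abcc9, Angpt2, Sema3d, C2, Paqr6 and Dkk3. Acsbg1, which encodes an acyl-CoA synthetase (chromosome 9, 54604877 to 54661870, minus strand), stood at 1.07, 0.0450, 0.0697 and 0.161 CPM in cluster 3 and 348, 17.3, 68.8 and 90.1 in cluster 8 (8.98 ± 0.44, edgeR adjusted p = 0.00205). It was detected in 25 of 251 cells of cluster 8 and in 0 of 438 of cluster 3, which allows up to 0.685%. Abcc9, which encodes the sulfonylurea receptor SUR2 of ATP-sensitive potassium channels and is a classical pericyte marker, stood at 2.03, 0.135, 0.749 and 0.854 in cluster 3 and 190, 15.4, 114 and 172 in cluster 8 (7.10 ± 0.38, edgeR adjusted p = 0.00205). Abcc9 was the only one of 12 mural markers that was called, the list had 6 positive and 6 negative folds, and it summed to 168 to 609 CPM in cluster 3 and 200 to 547 in cluster 8. Of the 12 leading genes, 8 were called without Acta2GFP, 9 without C57BL6, 4 without the pool and 3 without PdgfrbGFP.

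Of the other leading genes, Angpt2, which encodes the Tie2 ligand angiopoietin-2, stood at 0.135 to 1.39 in cluster 3 and 28.8 to 87.4 in cluster 8 (7.05 ± 0.94, edgeR adjusted p = 0.0337). Sema3d, a guidance factor gene, stood at 0.270 to 0.662 and 7.49 to 113 (6.89 ± 0.81, edgeR adjusted p = 0.023). Gabra3 encodes a subunit of the GABA-A receptor and stood at 0 to 1.06 and 24.6 to 106 (7.99 ± 1.07, edgeR adjusted p = 0.0339). Cldn1, a tight junction gene expressed in perineurial cells and not one of the 12, was the 1 called gene of 8 tested Schwann and perineurial markers (6.75 ± 1.00, edgeR adjusted p = 0.043). Of these 8, 6 had a positive fold, the median log2 fold was 2.04 against -0.06 for all genes, and DESeq2 called 3, each higher in cluster 8. Cldn1 was detected in 10 of 251 cells of cluster 8 and in 0 of 438 of cluster 3. All 12 markers of that list summed to 883 to 1268 CPM in cluster 3 and 896 to 1278 in cluster 8. Pmp22, which was not called, made up most of these sums, at 849 to 1239 and 784 to 1235 CPM without TMM factors. The sums therefore say little about the other markers. Foxd3 and Erbb3 had 0 counts in both clusters and Sox10 0 in cluster 3. The endothelial markers summed to 10.7 to 24.9 CPM in cluster 3 and 25.5 to 185 in cluster 8, 8 of 9 tested had a positive fold, and 0 were called by edgeR (1 at an unadjusted p under 0.05, 3 by DESeq2). The part of endothelial, Schwann or perineurial RNA in these differences was not tested. The immune markers summed to 6.82 to 47.3 and 0.308 to 40.5, and the muscle markers to 199 to 284 and 110 to 302. By edgeR 0 of 2 immune and 0 of 11 muscle markers tested were called, with 0 at an unadjusted p under 0.05 and 0 by DESeq2. The authors had removed cells with clear endothelial or immune signatures, so low sums of these markers follow in part from that step.

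Several of the leading genes occurred in the same cells. Per cell, 0 to 9 of the 12 were detected, with a median of 1 in clusters 5 and 8 and 0 in clusters 1, 3 and 6. 60 of 251 cells of cluster 8 (23.9%) held 4 or more, against 0 of 438 in cluster 3, 0 of 160 in cluster 1, 2 of 31 in cluster 5 and 1 of 185 in cluster 6. The 12 had been picked for their fold over cluster 3, so the low counts in cluster 3 largely follow from that choice. By label, these were 6 of 13 cells of Acta2GFP, 4 of 60 of C57BL6, 7 of 30 of the pool and 43 of 148 of PdgfrbGFP. The limit of 4 was chosen after the values were seen and cuts a range, with 20 cells at 3 genes and 20 at 4. Of the 25 cells with Acsbg1, 64.0% also held Dkk3, 56.0% Sema3d and 52.0% Gabra3, against 20.8%, 7.52% and 8.41% of the 226 others. Of the 11 partner genes, 10 had a higher share in the cells with Acsbg1. Vill, with the second largest fold of the 12, did not, at 8.00% and 8.41%. These shares pool the 4 labels, and levels also differed between labels. In cluster 8, Acsbg1 and Dkk3 stood at 348 and 377 CPM in Acta2GFP and at 17.3 and 27.9 in C57BL6. The part of the label mix in these shares was not tested.

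The same 60 cells differed from the other 191 in genes that had not been used to pick them, which is given as a description with no test. Cells are not replicates, the genes come from the same counts, and the split does not show separate kinds of cluster 8 cell. The labels were mixed differently in the 2 sets, with C57BL6 giving 4 of the 60 cells and 56 of the 191, so the values within labels stand beside the pooled ones. C3 was detected in 41.7% of the 60 and 78.0% of the others, with medians of 17.4 and 1136 counts per 500000. Within PdgfrbGFP, C3 was detected in 41.9% of 43 cells and 72.4% of 105 others, within the pool in 28.6% of 7 and 78.3% of 23, and within C57BL6 in 75% of 4 and 94.6% of 56. In Acta2GFP the shares were 33.3% of 6 and 28.6% of 7, which does not repeat the direction. C4b was detected in 15.0% and 47.6%, and Ccl11 in 38.3% and 73.8%, and both shares were lower in the cells rich in leading genes in each of the 4 labels, although the medians of Ccl11 in the pool were close, at 253 and 250. Ntrk2 was detected in 33.3% and 56.5%, with the lower share in 3 labels and the reverse in Acta2GFP, at 66.7% of 6 and 42.9% of 7. C3, C4b and Ntrk2 were higher in cluster 8 than in cluster 3 as a whole.

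Gdf10 and Fmo2 went the other way. The medians of Gdf10 were 1581 and 628 counts per 500000 and higher in the 60 cells in each of the 4 labels, with a narrow gap in the pool, at 1251 and 1162. Those of Fmo2 were 535 and 83.3, and also higher in each label. C7 had pooled medians of 759 and 478, but the gap stood in C57BL6 (729 and 218) and PdgfrbGFP (805 and 568) and not in Acta2GFP (642 and 651) or the pool (694 and 694). Dcn (3324 and 3391) and Gsn (6191 and 5899) were close when pooled, while in PdgfrbGFP Gsn stood at 6200 and 8189. The depth was close, at medians of 275966 and 286139 counts per cell.

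**Figure D4:**
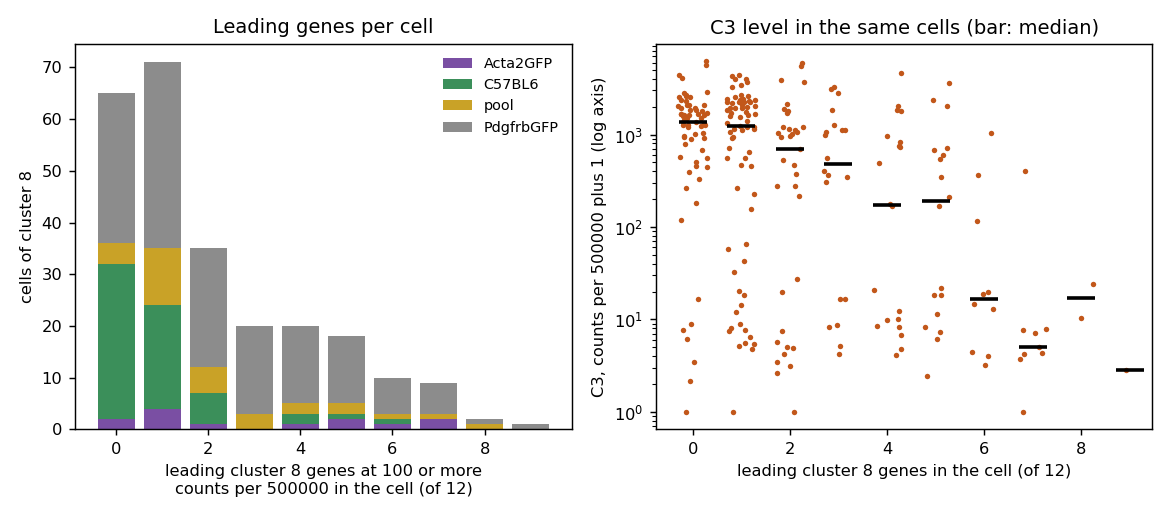
Left, the number of cluster 8 cells (y axis) by how many of the 12 leading genes they held at 100 or more counts per 500000 (x axis), stacked by strain label. Right, C3 in the same cells on a log axis, with bars at the medians: most of the 65 cells with 0 leading genes lie near 1000 counts per 500000, and the cells with 6 or more lie mostly below 100.

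Windows from 250 bases before to 50 after the start of transcription were read from RefSeq (GRCm38.p6) for the leading genes, because 2 of the transcription factor genes above, Gata6 and Nr2f2, encode proteins that bind known DNA letters. The letters searched on both strands were AGATAA and TGATAA for GATA factors and AGGTCA for nuclear receptors. Of the 12 leading genes of cluster 8, 8 had a window and 3 held a match. Of the 12 of cluster 3, 11 had a window and 0 held one. The 3 windows are shown with the match in capitals: Art4 (chr6:136857551-136857850, minus strand), Cpz (chr5:35525577-35525876, minus strand) and Paqr6 (chr3:88364339-88364638, plus strand).
Art4: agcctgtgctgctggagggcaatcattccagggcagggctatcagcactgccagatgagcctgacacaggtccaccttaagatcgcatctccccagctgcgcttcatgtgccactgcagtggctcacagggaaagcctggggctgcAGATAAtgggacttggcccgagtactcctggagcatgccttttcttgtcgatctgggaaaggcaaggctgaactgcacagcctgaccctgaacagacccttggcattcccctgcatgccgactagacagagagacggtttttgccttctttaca
Cpz: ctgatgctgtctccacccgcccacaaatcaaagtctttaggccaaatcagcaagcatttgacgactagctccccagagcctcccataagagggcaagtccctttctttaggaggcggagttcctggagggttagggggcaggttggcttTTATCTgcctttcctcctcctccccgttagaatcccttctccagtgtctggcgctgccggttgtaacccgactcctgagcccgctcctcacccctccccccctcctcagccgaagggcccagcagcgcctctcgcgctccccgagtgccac
Paqr6: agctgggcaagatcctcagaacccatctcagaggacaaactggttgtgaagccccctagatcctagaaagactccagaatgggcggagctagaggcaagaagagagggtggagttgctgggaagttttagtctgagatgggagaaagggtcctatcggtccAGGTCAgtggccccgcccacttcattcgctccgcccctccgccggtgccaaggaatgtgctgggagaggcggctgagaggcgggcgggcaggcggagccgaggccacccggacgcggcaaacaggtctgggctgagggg

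Over all called genes with a window, GATA letters were in 10 of 57 genes higher in cluster 8 (17.5%) and 1 of 38 higher in cluster 3 (2.63%), against 12.1% of 10010 genes tested. The nuclear receptor letters were in 10 of 57 (17.5%) and 2 of 38 (5.26%), against 14.7%. A match is a description of these letters and shows no binding.

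Against the other endomysial clusters, the markers of clusters 3 and 8 differed in how far they were shared. The values are shares of cells at 100 or more counts per 500000, as the mean over the strain labels with 3 or more cells, with no test. Gfra1 was found in 38.4% ± 7.1 of cluster 3 cells (SD, n = 4 labels), 31.9% ± 18.8 of cluster 5 (n = 3), 13.01% ± 0.69 of cluster 6 (n = 3) and 9.41% ± 6.4 of cluster 1 (n = 4). Mme was found in 37.5% ± 7.9 of cluster 3 cells and in 2.35% to 6.70% on average of the other 4 clusters. Hsd11b1 was highest in cluster 3 at 82.9% and lowest in cluster 6 at 13.6%. Gdf10 was found in 84.4% ± 14.6 of cluster 8 cells and 70.7% ± 6.8 of cluster 6 cells, ranges that overlapped, against 34.7% ± 33.4 of cluster 5 (n = 3) and 4.59% ± 4.0 of cluster 1. C7 was found in 84.8% ± 15.8 of cluster 8 and 95.1% ± 4.3 of cluster 5. C3 was found in 86.8% ± 14.9 of cluster 1 and 83.3% ± 16.7 of cluster 5 (n = 3), with 63.6% ± 25.6 in cluster 8, 50.1% ± 17.6 in cluster 3 and 19.7% ± 7.1 in cluster 6. Acsbg1 reached the level in cluster 8 (15.2% ± 16.03, from 1.67% in C57BL6 to 38.5% in Acta2GFP) and in 0 cells of the labels used in the other 4 clusters. Other leading genes were shared more, by mean CPM without TMM factors (n = 4 labels, 3 in cluster 5). Sema3d stood at 81.3 in cluster 5 and 61.5 in cluster 8, and Abcc9 at 82.7 and 121. Gabra3 stood at 49.7 in cluster 6 and 58.2 in cluster 8, and Dkk3 at 157 and 206. Art4, Mlana and Angpt2 reached at most 0.575, 0.240 and 0.557 in the other 4 clusters. C4b and Sfrp4 were higher in cluster 5 (875 and 2601) than in cluster 8 (493 and 629).

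**Figure D5:**
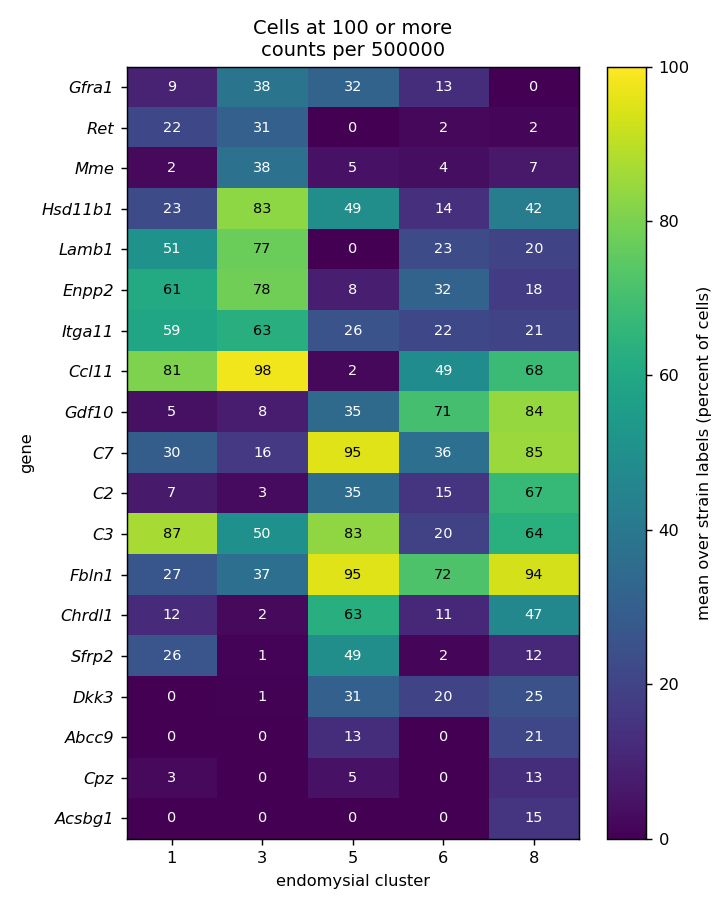
Mean share of cells (percent, over strain labels with 3 or more cells) at 100 or more counts per 500000 for 19 genes (rows) in endomysial clusters 1, 3, 5, 6 and 8 (columns). Gfra1 stands at 38 in cluster 3 and 0 in cluster 8, Gdf10 at 84 in cluster 8 and 71 in cluster 6, and Acsbg1 at 15 in cluster 8 and 0 elsewhere.

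The share of cluster 8 among the cells of both clusters varied with the strain label. It was 25% in Acta2GFP (exact 95% binomial interval 14.03 to 38.9), 51.3% in C57BL6 (41.9 to 60.6), 15.5% in the pool (10.7 to 21.4) and 45.3% in PdgfrbGFP (39.8 to 50.8). The sort gate and the plate differed between labels as well, so these cannot be told apart. Where the muscles had been kept apart, the share was 12.8% in gastrocnemius (7.63 to 19.7) and 21.7% in soleus (12.1 to 34.2) of the pool, with overlapping intervals, and 71.2% (58.7 to 81.7) and 33.8% (23.4 to 45.4) in PdgfrbGFP, with intervals apart. The intervals cover counting error only. The 2 and 2 cells of Cspg4dsRED held 15 and 0 counts of Gfra1 and 5 and 1062 of Gdf10.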

How the data were processed

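The deposited table held unnormalized counts of reads for each gene in each cell. The authors mapped single 50-base reads to GRCm38 (mm10) with TopHat2 and counted them with featureCounts, and strand use was not given in the sources used here. They dropped cells with few or very many genes, cells with neither Pdgfra nor Pdgfrb, and cells with clear endothelial or immune signatures. Clustering was done with pagoda2, and no doublet caller was run here. One of 1754 columns had no matching label and was not used.

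Labels gave cluster, strain, plate and muscle. Members and gene lists were chosen with earlier results of these data known. Raw counts, without the 92 spike-ins, were summed per strain label and cluster, and tested with edgeR 4.0.16 (quasi-likelihood, TMM, filterByExpr, strain label as a block, Benjamini-Hochberg) in R 4.3.3. Both clusters of a label came from the same plates, which is the source of the pairing. The muscles did not enter both sums in equal parts. In PdgfrbGFP, cluster 3 held 19 gastrocnemius, 51 soleus and 109 unseparated cells, and cluster 8 held 47, 26 and 75. Of the identifiers, 46005 matched GENCODE M21. DESeq2 1.42.0 was an alternative. The code was tested on simulated data. Shares used 100 or more counts per 500000, and thinned cells held 40000 counts.

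Named genes were the 12 largest folds in each direction among called protein-coding genes with 1 direction in every label and a mean log2 CPM of 5 or more, the 4 largest called folds of each list (with fewer than 2 calls also the 2 members of highest level), and a fixed set, of which some are not reported here. Exonic overlaps of 5% or more were found with bedtools 2.31.1.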

Additional observations from a re-analysis of the deposited data

Results flagged for a closer look

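In each cluster, the level of the named genes and the depth measures were checked over the 4 strain labels for 1 label far from the other 3, and 16 of 208 such groups had one, where chance gives about 1 in 20. Levels here are log2 CPM with a prior of 2 counts. C57BL6 stood apart most often. In cluster 8 it was low for Cpz (3.90, others 7.09 to 7.63), C2 (8.34, others 9.72 to 9.87) and Mmp2 (10.96, others 11.5 to 11.6), and high for Adh7 (7.19, others 6.06 to 6.23) and Gadd45g (9.82, others 8.78 to 8.86). In cluster 3 it was low for Il33 (7.08, others 7.98 to 8.09), Des (4.61, others 6.24 to 6.49) and Ly6a (9.78, others 10.0 to 10.1).

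Acta2GFP was low in cluster 3 for Mme (7.34, others 7.86 to 7.95) and Pecam1 (-0.28, others 2.28 to 2.55), and low in cluster 8 for Csf1r (-3.69, others 4.15 to 5.25). The pool stood apart in cluster 3 for Cpxm2 (5.35, others 6.40 to 6.45) and Ccl19 (2.75, others 1.85 to 1.93). PdgfrbGFP stood apart in cluster 3 for Folh1 (-2.77, others at -3.69 with 0 counts) and Ntrk2 (6.13, others 6.96 to 7.12), and in cluster 8 for Fbln1 (11.2, others 10.5 to 10.6).

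The share of cluster 8 among the cells of both clusters was higher in soleus than in gastrocnemius by 8.88 percentage points in the pool, and the same difference was -37.4 percentage points in PdgfrbGFP. The difference between the labels was not tested.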

How the results depend on the processing

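Counts of called genes are given as all, higher in cluster 8 and higher in cluster 3. Against 141, 85 and 56, DESeq2 called 1041, 585 and 456, no filter on low counts 266, 138 and 128, the plate and muscle as the unit 499, 288 and 211, cells thinned to one depth 326, 188 and 138, equal numbers of cells 66, 37 and 29, and the fit that added the 2 and 2 cells of Cspg4dsRED 9, 8 and 1. Leaving out 1 strain label gave 7 to 106, 6 to 75 and 1 to 31. Without the replicate block there were 188, 120 and 68 calls, of which 110 were among the 141. RLE scaling gave 138, 82 and 56. The cause of these shifts was not tested. Every one of the 141 genes kept its direction in each fit that tested it. The 102 named genes gave 1216 values under the alternatives, of which 900 kept their side of the threshold, 290 lost the call, 26 gained it and 0 reversed. The median over all genes moved from -0.06 to 0.06 with equal numbers of cells. Depth limits genes of few counts: Folh1 and Gabra3 had 0 counts in 1 or more cluster 3 libraries, where the size of the fitted fold depends on the prior count. With 4 labels no paired permutation test can go below 0.125.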
